A study of Mus musculus with 4 samples.

Results

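The clustered protocadherin genes of the mouse were followed at the nuclear periphery of hepatocytes with and without Tm7sf2, a transmembrane protein of the nuclear envelope (NE). Members were the protein-coding genes on chromosome 18 of the mm9 annotation whose symbol is Pcdha, Pcdhb, Pcdhga, Pcdhgb or Pcdhgc followed by a digit. The rule found 24 genes of 22367 protein-coding genes in the annotation and of 517 on chromosome 18. They are 21 *Pcdhb* genes (*Pcdhb1* to *Pcdhb19*, *Pcdhb21* and *Pcdhb22*), *Pcdha3*, *Pcdha11* and *Pcdhgc5*. The annotation treats *Pcdhb20* as a pseudogene and lists no gene as *Pcdhac1* or *Pcdhac2*. It also gathers most Pcdha transcripts under *Pcdha11*, with 10 coding transcripts, and the Pcdhg transcripts under *Pcdhgc5*, again with 10. The start of every coding transcript was therefore used as well as the span of each gene. The annotated transcripts are called here by their annotation names, such as Pcdhgc5-206, and were not matched to single isoforms. Whether the annotation holds every isoform was not checked, and isoforms without a coding transcript in it are not counted below.

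Clustered protocadherins are cadherin-like proteins of the cell surface that are best known from neurons, where each cell uses its own small selection of them and where homophilic binding lets the branches of a neuron recognize each other. In the Pcdha and Pcdhg parts each large variable exon has its own promoter and codes for the extracellular and transmembrane domains, and it is spliced to a short set of shared constant exons that code for the common cytoplasmic end. The Pcdhb genes mostly consist of a single large exon and have no shared end. Promoter choice in this family depends on CTCF, cohesin and DNA methylation, and the family has been studied mostly in the nervous system.

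DamID marks DNA that comes close to the NE, because a bacterial Dam methylase fused to lamin B1 methylates nearby GATC sites, and Dam methylase alone measures how open the DNA is. Primary hepatocytes came from wild-type (WT) mice and from *Tm7sf2*-/- mice (KO), which lack the gene in the whole animal, all aged 12 to 16 weeks. The cells of both genotypes received lentivirus carrying either Dam-LaminB1 or Dam only, were left with it for 24 h, and were harvested 60 h after transduction, so that every library carries a Dam construct. The 4 libraries, 1 of each construct per genotype, each hold the pooled DNA of 4 mice. With 1 library pair per genotype there is no spread between animals, so no difference between WT and KO below carries an error or a test. Neighboring genes lie in the same domains and are not replicates of each other. Lists of positions cannot show the loss of Tm7sf2 itself or which cells the cultures held.

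The authors set Dam-LaminB1 against Dam only as a log2 ratio and segmented it into lamina-associated domains (LADs) for each genotype. They took as differential regions (DRs) the stretches of at least 10 kb that are in LADs of one genotype only. The lists give positions with no signal, score or read number, so how strongly a gene was labeled cannot be given, and the read depth behind a border is unknown from them. The KO list holds 16076 LADs with a median of 38.81 kb and the WT list holds 8107 with a median of 40.81 kb. The shares of the genome in LADs were 56.12% in KO and 55.44% in WT, so the KO list holds more and smaller pieces of about the same total. The study gives far fewer usable reads for KO than for WT, and the part of this gap in the smaller pieces of the KO list was not tested. All positions below are in mm9 (NCBIM37) and counted from 1.

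The members span 911.6 kb, from 37089939 to 38001527 on chromosome 18, and all are read from the plus strand. First comes the Pcdha part (37089939 to 37347311, 257.4 kb), then the Pcdhb part (37424652 to 37681073, 256.4 kb), and last the Pcdhg part (37833989 to 38001527, 167.5 kb). Most of this stretch was at the NE in both genotypes. LADs covered 88.55% of the cluster in WT and 86.68% in KO, against 56.31% and 57.05% of chromosome 18. With LADs joined across gaps of up to 20 kb the order of the genotypes turned, to 89.97% in WT and 90.99% in KO.

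**Figure D1:**
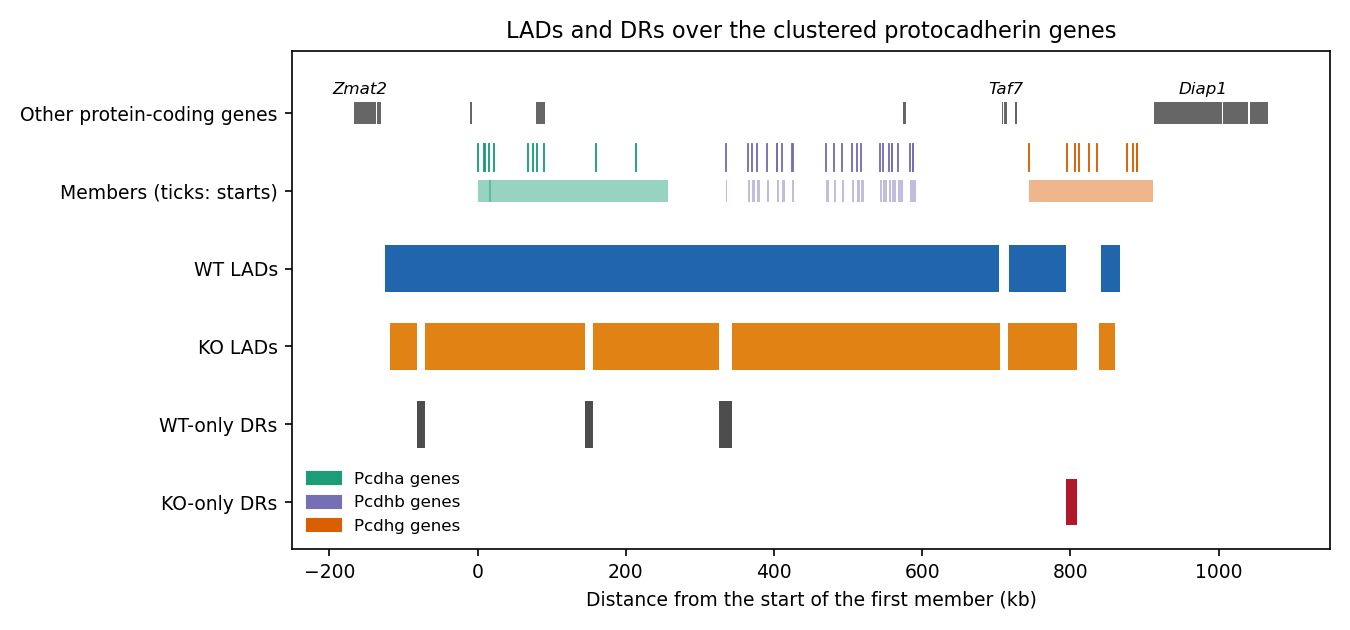
Map of the protocadherin cluster, with the distance from the start of the first member in kb on the horizontal axis and rows for other protein-coding genes, members (bars: gene spans, ticks: starts of coding transcripts), LADs and DRs of each genotype. A single WT LAD of 828.4 kb lies over the Pcdha and Pcdhb parts, KO LADs over the same stretch are divided by 3 WT-only DRs, and the only KO-only DR drawn lies in the Pcdhg part.

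Genes were placed in the study's 5 position classes by the overlap of their span with a DR by at least 1 base. Overlap with a WT-only DR makes a gene PI (periphery to interior in KO), overlap with a KO-only DR makes it IP (interior to periphery), and overlap with DRs of each kind makes it ambiguous (AMB). A gene without a DR is PP where it meets LADs of both lists, and all remaining genes are II. Of the 24 members, 21 were PP, where 17.9% of all protein-coding genes were PP. *Pcdha11* and *Pcdhb1* were PI (background 5.43%), *Pcdhgc5* was IP (background 17.1%), and 0 members were II (background 56.6%) or AMB (background 2.96%). The PP members were 20 of the 21 *Pcdhb* genes and *Pcdha3*, each with 100% of its span in LADs of both genotypes.

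These calls do not weigh how much of a gene changed. The WT-only DR took up 100% of *Pcdhb1*, a single-exon gene of 2.457 kb, but 4.157% of *Pcdha11*, whose span is 257.4 kb. The KO-only DR took up 8.308% of *Pcdhgc5*, whose span is 167.5 kb. *Pcdhb1* was therefore the only member listed as wholly inside a LAD in WT and wholly outside in KO. Where at least 10% of the span must lie in a DR, *Pcdhb1* keeps its call and *Pcdha11* and *Pcdhgc5* lose theirs. Where only DRs of at least 20 kb count, or LADs are joined across gaps of up to 20 kb, the change at *Pcdhb1* is lost too.

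**Figure D2:**
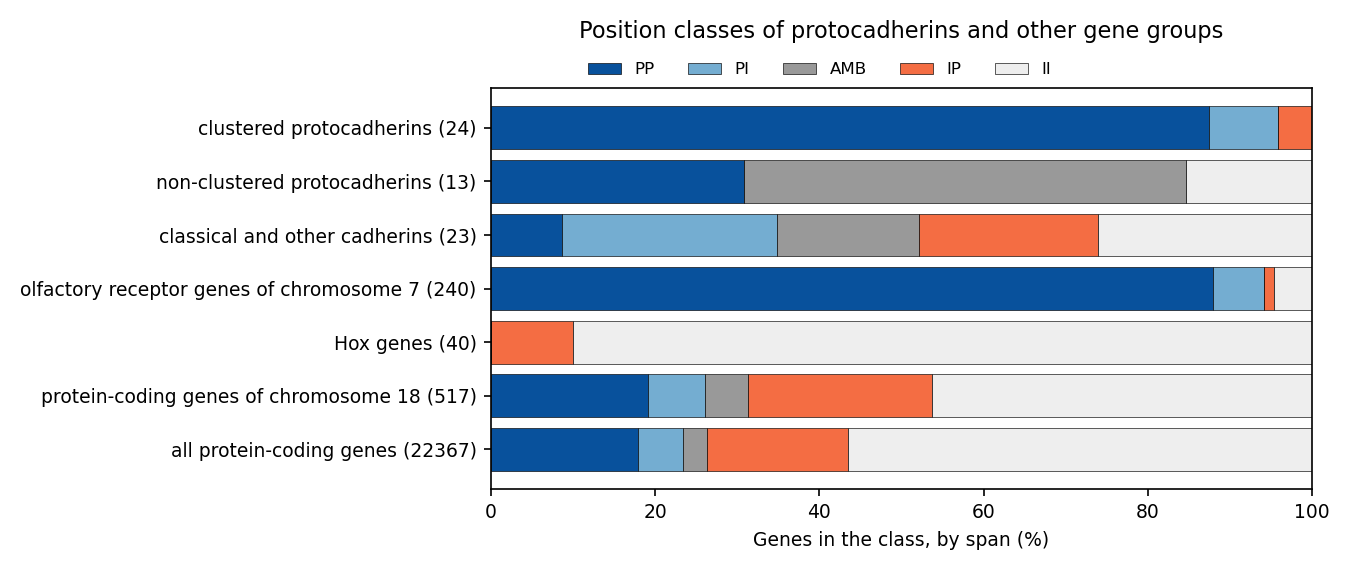
Share of genes in each position class (horizontal axis, percent of the genes of the group; number of genes in parentheses), called by gene span. The clustered protocadherins have 87.5% of their genes in PP, close to the olfactory receptor genes of chromosome 7 (87.92%) and far from the Hox genes (0%).

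Start sites gave nearly the same picture. All 24 members started in a WT LAD, where 22.7% of protein-coding genes did. In KO, 23 did so (background 32.8%). Thus 23 started in LADs of both genotypes (background 20.1%), *Pcdhb1* in a WT LAD only (background 2.62%), and 0 in a KO LAD only (background 12.7%) or in neither (background 64.6%). Because a single start stands for the whole of *Pcdha11* and of *Pcdhgc5*, the 46 coding transcripts tell more. Of their starts, 36 were in LADs of both genotypes (background over all coding transcripts 14.7%), 1 in a WT LAD only (2.23%), 2 in a KO LAD only (12.6%) and 7 in neither (70.4%). The 2 starts in a KO LAD only and the 7 in neither all belong to the Pcdhg part, and the 1 in a WT LAD only is that of *Pcdhb1*.

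The Pcdha and Pcdhb parts lay together in a single WT LAD from 36965148 to 37793542. At 828.4 kb this LAD was long for the list, in which 413 of 8107 WT LADs were longer. It held 23 members whole and overlapped 25 protein-coding genes in all. Among the 387 WT LADs between 500 and 1000 kb the median was 2 genes (quartiles 1 and 3), and 1 of them overlapped more than 25. Among the 1481 WT LADs of at least 200 kb, 24 overlapped more genes. The LAD over the protocadherins was therefore near the top of the LADs of like length in genes. As 23 of its 25 genes were members, this number follows largely from the choice of a gene cluster. In KO, 4 LADs lay over the same stretch and covered 94.4% of it. That was near the median of the 387 LADs of like length, which had 92.98% of their bases in KO LADs (quartiles 88.84% and 96.61%) and 4 KO LADs over them (quartiles 3 and 6). It contained 3 WT-only DRs, where the median of those LADs was 2 (quartiles 1 and 4).

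The first of the 3 DRs lay before the cluster and touched no protein-coding gene (37007770 to 37018796, 11.03 kb). The second (37234894 to 37245592, 10.7 kb) lay within *Pcdha11*, in a stretch with 0 exons of the member and 0 transcript starts. The third (37416205 to 37433648, 17.44 kb) reached from the gap between the Pcdha and Pcdhb parts over *Pcdhb1* and no other protein-coding gene. LAD bases lost in KO came to 4.357% of the WT LAD bases of the cluster, against 13.87% on chromosome 18 and 12.88% in the genome.

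The Pcdha part was within a LAD over 100% of its length in WT and 95.84% in KO. All 11 of its coding transcripts, 10 of *Pcdha11* and 1 of *Pcdha3*, started in LADs of both genotypes, and each of their first exons, of 1.491 to 2.562 kb, lay wholly in LADs of both. The start of *Pcdha11* was 124.8 kb from the nearest border of its WT LAD and 71.14 kb from that of its KO LAD. The start of *Pcdha3* was 140.7 kb and 87 kb inside. The start nearest to a KO border belonged to Pcdha11-201, at 37249790, which was 284.6 kb inside the WT LAD and 4.197 kb inside a KO LAD, on the far side of the intronic DR. The 3 exons that 9 of the 10 *Pcdha11* transcripts share, of 59, 89 and 2712 bases, were 100% in LADs of both genotypes and 70.22 to 73.33 kb from the nearest KO border. In *Pcdha11*, annotated variable exons and constant exons therefore had the same listed position.

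The Pcdhb part was 100% in a WT LAD and 96.49% in KO LADs. Its 21 genes, of 2.457 to 7.131 kb, follow each other without a shared exon between genes. *Pcdhb1* (37424652 to 37427108) starts the row. It was 368.9 kb from the nearest WT LAD border, farther than any of the other 20, and in KO it lay 8.448 kb outside the nearest LAD. *Pcdhb2* was 339 kb inside in WT and 20.84 kb inside in KO. *Pcdhb14* was 186.2 kb inside in WT and 173.7 kb inside in KO, and *Pcdhb22*, the last of the row, was 115.5 kb and 117.1 kb inside. The 20 genes after *Pcdhb1* all lay in a single KO LAD (37433649 to 37795060, 361.4 kb). Over the row, the distance of the start to the nearest border had a median of 212.5 kb in WT (21 genes, 115.5 to 368.9 kb) and of 132.3 kb in KO (20 genes, 20.84 to 173.7 kb).

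The difference between genotypes in this distance was not spread evenly. From *Pcdhb15* to *Pcdhb22* the nearest border was the right one in both genotypes, and the distance of *Pcdhb15* was 160.3 kb in WT and 161.9 kb in KO. From *Pcdhb2* to *Pcdhb14* the nearest KO border was the left one beside *Pcdhb1*, so the KO distance was the smaller one for each of these genes. A shorter distance to a border does not mean that a gene left the LAD, and all 20 stayed listed inside one.

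**Figure D3:**
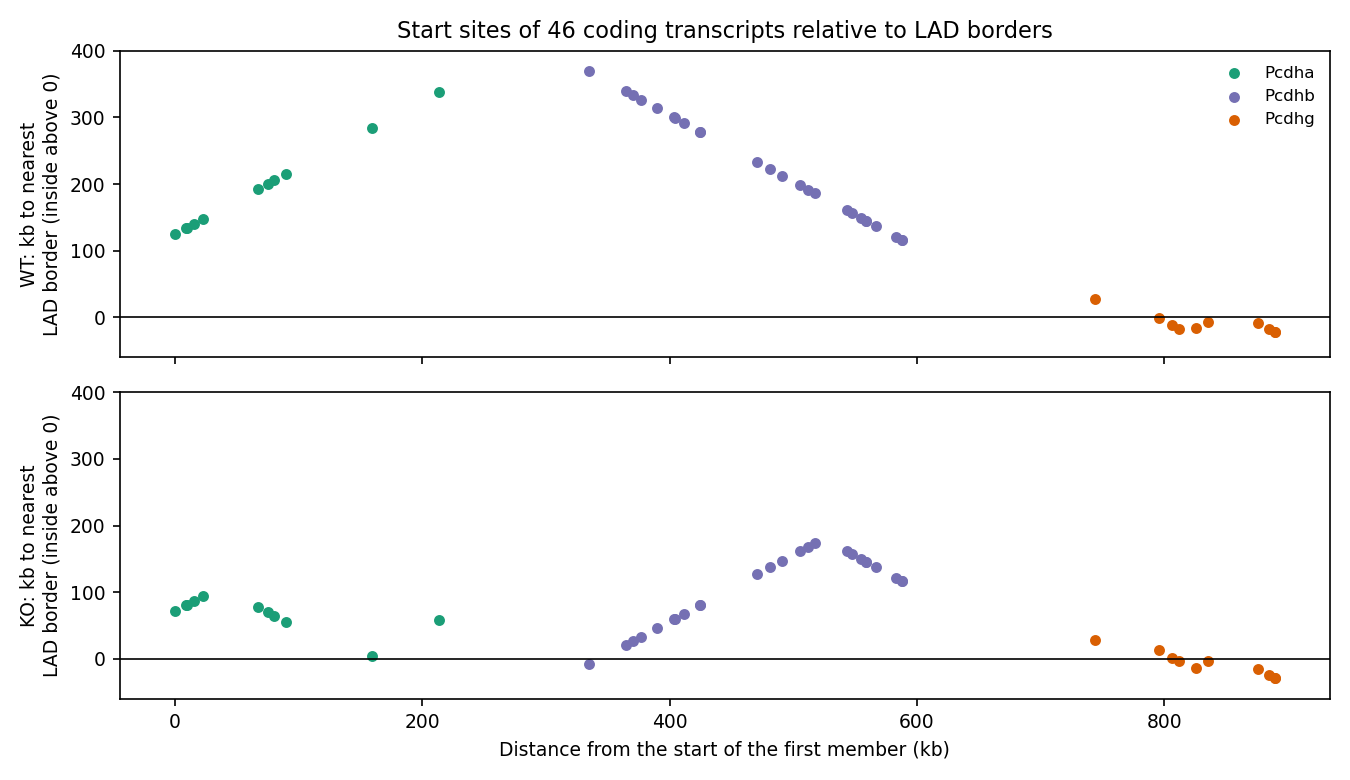
Distance in kb from the start of each of the 46 coding transcripts to the nearest LAD border (vertical axis, positive inside a LAD and negative outside) by position along the cluster (horizontal axis, kb from the start of the first member), for WT above and KO below. Pcdha and Pcdhb starts form a single slope up and down in WT and several in KO, where *Pcdhb1* is the only Pcdhb start below 0, and most Pcdhg starts are below 0 in both.

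Between the Pcdhb and Pcdhg parts, both genotypes had a gap in their LADs, of 12.96 kb in WT and 11.17 kb in KO. The gap held the same genes in each, *Slc25a2*, which codes for a mitochondrial ornithine carrier, and *Taf7*, a subunit of the general transcription factor TFIID. Both were II, with 0% of their span in a LAD. The WT and KO borders on the left of this gap were 1.518 kb apart and those on its right 0.271 kb apart. Other protein-coding genes that lie among the members, *Gm10545* and *3222401L13Rik*, were PP, as was the pseudogene *Pcdhb20*. This gap is thus shared by both lists and lies at genes that are not protocadherins, whereas the other gaps in the cluster lie within *Pcdha11*, over *Pcdhb1* and in the Pcdhg part.

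LADs covered less of the Pcdhg part than of the other parts in both genotypes, 45.42% in WT and 50.98% in KO. With LADs joined across gaps of up to 50 kb this order turned, to 73.52% in WT and 69.33% in KO. A LAD of 78.02 kb in WT (37806498 to 37884519) and of 92.21 kb in KO (37806227 to 37898438) reached into it from the left, and a small LAD of 25.56 kb in WT (37931605 to 37957161) and 20.97 kb in KO (37929170 to 37950135) lay between its variable exons. Of the 10 coding transcripts, 1 started in LADs of both genotypes (background over all coding transcripts 14.7%), 2 in a KO LAD only (12.6%) and 7 in neither (70.4%). The share in neither was thus near that of all coding transcripts. The small LAD held 0 starts in either genotype.

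The first start, Pcdhgc5-207 at 37833989, was 27.49 kb inside the WT LAD and 27.76 kb inside the KO LAD. The next, Pcdhgc5-206 at 37885360, was 0.841 kb outside the WT LAD and 13.08 kb inside the KO LAD, and LADs took up 0% of its first exon in WT and 100% in KO. The third, Pcdhgc5-210 at 37896590, was 12.07 kb outside in WT and 1.848 kb inside in KO, and 70.9% of its first exon was in the KO LAD. These are the annotated variable exons that meet the KO-only DR (37884520 to 37898438, 13.92 kb), where the right border of the LAD is placed farther along in KO. For Pcdhgc5-206 the WT call and for Pcdhgc5-210 the KO call rest on less than 2 kb.

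**Figure D4:**
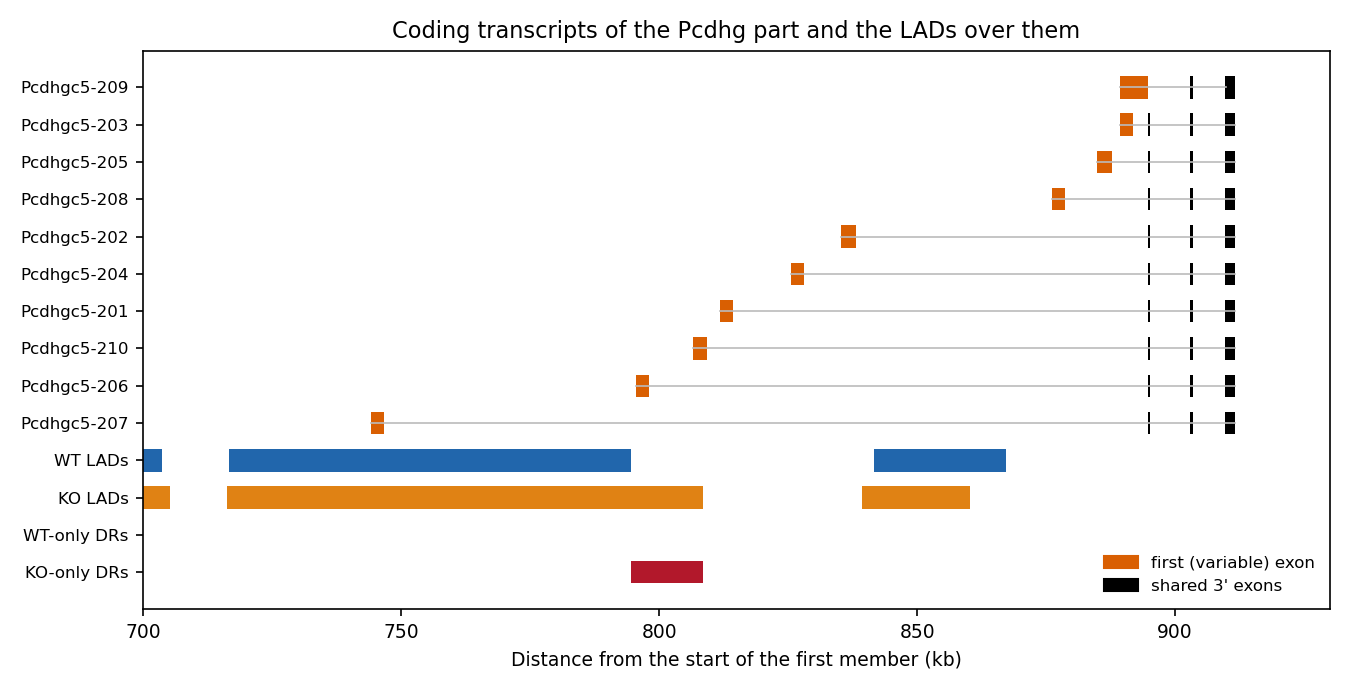
Coding transcripts of *Pcdhgc5* (rows, named as in the annotation) with their first exons and shared exons, above the LADs and DRs of each genotype, by distance from the start of the first member in kb (horizontal axis). The first exon of Pcdhgc5-207 lies in LADs of both genotypes, those of Pcdhgc5-206 and Pcdhgc5-210 meet the KO-only DR of 13.92 kb, and the other 7 first exons and the shared exons lie outside LADs in both.

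The other 7 Pcdhg starts lay outside LADs in both genotypes. Pcdhgc5-201, Pcdhgc5-204 and Pcdhgc5-202 were 17.23, 16.18 and 6.371 kb from the nearest WT LAD and 3.31, 13.74 and 3.936 kb from the nearest KO LAD, in the gap before the small LAD. This gap was 47.09 kb wide in WT and 30.73 kb in KO. Pcdhgc5-208, Pcdhgc5-205, Pcdhgc5-203 and Pcdhgc5-209 followed the small LAD, at 8.903 to 22.15 kb from it in WT and 15.93 to 29.17 kb in KO. The nearest LAD was thus closer to the starts before the small LAD in KO than in WT, and farther from those after it. The 3 shared constant exons, of 59, 89 and 1971 bases, were 0% in LADs of either genotype, and their starts lay 27.51 to 42.4 kb from the nearest LAD in WT and 34.54 to 49.42 kb in KO. *Pcdhgc5* was therefore called by its first start and its span, while its constant exons and most of its variable exons were listed outside LADs in both genotypes, unlike those of *Pcdha11*. For the starts, 7 of 10 in neither list was near the 70.4% of all coding transcripts, so this is not particular to *Pcdhgc5*.

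Most genes beside the cluster were listed outside LADs in both genotypes. The last WT LAD ended 44.37 kb before the end of *Pcdhgc5*, and 0% of the 500 kb beyond *Pcdhgc5* was in a LAD in WT and 2.806% in KO. The next 5 protein-coding genes were *Diap1*, which codes for an actin-nucleating formin, the histone deacetylase gene *Hdac3*, *Rell2*, *Fchsd1* and *Arap3*, and all were II with 0% of their span in LADs. On the other side, *Gm6756* was PP, and *Dnd1*, the histidyl-tRNA synthetase genes *Hars* and *Hars2*, and *Zmat2* were II with 0% in LADs. In the 500 kb before the cluster, 24.96% was in LADs in WT and 22.02% in KO. The left border of the long LAD, 124.8 kb before the first member, differed by 7.191 kb between the lists.

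**Figure D5:**
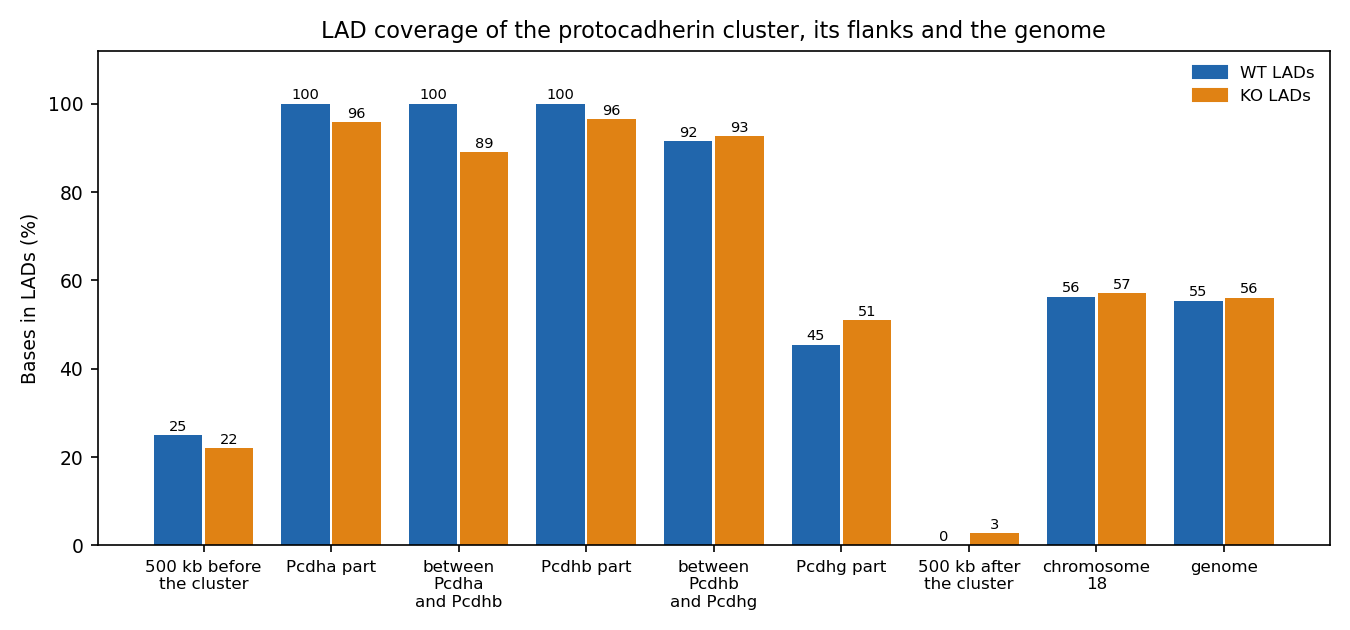
Share of bases in LADs (vertical axis, percent) in WT and KO, for the parts of the cluster, the stretches between them, the 500 kb on either side, chromosome 18 and the genome. The Pcdha and Pcdhb parts stand at 100% in WT and 95.84% and 96.49% in KO, the Pcdhg part at 45.42% and 50.98%, and the 500 kb after the cluster at 0% and 2.806%.

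The parts also differed in base composition, which the lists did not use. Over the cluster the GC content was 41.4%, close to the genome's 41.76%, with 12.11 CpG per kb against 8.342. The Pcdhg part had 45.21% GC and 18.96 CpG per kb, the Pcdha part 40.45% and 12.47, and the Pcdhb part 40.44% and 10.93. First exons of at least 1 kb had a median of 46.95 CpG per kb in the Pcdha part (11 exons), 22.45 in the Pcdhb part (23 exons) and 36.15 in the Pcdhg part (10 exons). Over whole parts the Pcdhg part was the richest in CpG of the 3, and at the median of the first exons the Pcdha part was. The part of base composition in the LAD calls was not tested.

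DamID reads only GATC sites, so these were counted. The cluster has 2.796 GATC per kb against 2.507 in the genome. The DR before the cluster holds 48 GATC (4.353 per kb), above the upper quartile of 2.631 for WT-only DRs on chromosome 18. The intronic DR of *Pcdha11* holds 24 GATC (2.243 per kb), the DR over *Pcdhb1* 33 (1.892 per kb) and the KO-only DR 27 (1.94 per kb). The last pair fall below the lower quartile of the DRs of their kind on chromosome 18, which is 1.953 for 301 WT-only DRs and 2.036 for 316 KO-only DRs. Positions were counted where a stretch of 50 bases starts that occurs more than once in the cluster. They made up 6.492% of the cluster, with 8.893% in the Pcdha part, 4.301% in the Pcdhb part and 1.958% in the Pcdhg part. Between the Pcdhb and Pcdhg parts the share was 13.07%, and between the Pcdha and Pcdhb parts 2.58%. Copies elsewhere in the genome were not counted. Such positions made up 0.1495% of the intronic DR, 0.4242% of the DR over *Pcdhb1* and 3.607% of the KO-only DR. Their part in the calls was not tested.

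Other gene groups were set beside the cluster. Of 240 olfactory receptor genes on chromosome 7, also a large family in clusters and known from sensory neurons, 211 were PP (87.92%, against 17.9% of all protein-coding genes), 15 PI (6.25% against 5.43%), 3 IP (1.25% against 17.1%) and 11 II (4.583% against 56.6%). Their starts were in a LAD for 96.25% in WT (background 22.7%) and 89.58% in KO (background 32.8%). Of 40 Hox genes, developmental regulators that also stand in rows, 36 were II (90%, against 56.6% of all genes) and 4 IP (10% against 17.1%). The share of PP genes in the protocadherin cluster, 87.5%, thus stood near the 87.92% of the olfactory receptors and far from the 0% of the Hox genes. The 87.5% counts *Pcdha11* and *Pcdhgc5*, with 10 coding transcripts each, as 1 gene each. By coding transcript, 36 of 46 starts were in LADs of both genotypes (background 14.7%), and in the Pcdhg part 1 of 10.

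Protocadherins outside the cluster were mostly called AMB. Of 13 such genes, 4 were PP (30.77%, against 17.9% of all genes), 2 II (15.38% against 56.6%) and 7 AMB (53.85% against 2.96%). The AMB genes were *Pcdh7*, *Pcdh9*, *Pcdh10*, *Pcdh11x*, *Pcdh15*, *Pcdh17* and *Pcdh19*, which code for adhesion proteins with their own promoter each. They are long, from 56.17 kb for *Pcdh10* to 1550.4 kb for *Pcdh15*, whereas the *Pcdhb* genes span 2.457 to 7.131 kb. For example, 93.68% of *Pcdh7* was in WT LADs and 67.42% in KO LADs, and in *Pcdh10* it was 84.66% and 76.53%. All 7 started in a KO LAD only (background 12.7%), at 4.787 to 9.804 kb (median 7.044) outside the WT LAD and 12.29 to 77.9 kb (median 42.35) inside the KO LAD. Among the 24 clustered members 0 gene starts were of this kind, while 2 of their 46 coding transcript starts were, those of Pcdhgc5-206 and Pcdhgc5-210.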

How the data were processed

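Per the labels and the study's methods, the authors mapped reads to mm9, computed for each *DpnI* fragment a log2 ratio between the Dam-LaminB1 and Dam only libraries, and segmented it with DNAcopy into LADs. The submitters' processing notes name BWA and limma without a version. The 4 deposited lists hold coordinates and no score or ratio per region. The members and gene lists were chosen with earlier results of these data known.

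Coordinates were compared with NCBIM37 and its GENCODE annotation in Python 3.11.15 with numpy 2.4.6, and drawn with matplotlib 3.10.9. Subtracting one LAD list from the other with a minimum length of 10 kb gave back the deposited DRs on all chromosomes (0 differed). A GATC lay within 4 bases of 99.69% of WT and 99.75% of KO LAD borders on chromosome 18. Overlap, subtraction, joining and distance steps were checked on simulated intervals with known answers. Distances run from the transcript start to the nearest border of a LAD of that genotype.

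The naming rule took all members, protein-coding genes among them and 5 on each side, and allowed listed genes called PI, IP or AMB to be named. *Pcdh21* was found as *Cdhr1* through RefSeq synonyms. Alternatives changed the DR overlap, the gene interval, the minimum length and joining of LADs, and their borders. No sequence is printed. Expression and FISH data were not analysed here.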

Additional observations from a re-analysis of the deposited data

How the results depend on the processing

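Of 147 values recomputed for 23 results, 122 stayed within 1.5 times and 25 moved. PI members numbered 1 with at least 10% or 50% of the span in a DR, by start or by first exon, 6 in windows of 100 kb centred on the gene, and 0 with DRs of at least 20 kb. IP members numbered 0 with 10% or 50% of the span, by start, by first exon, with DRs of at least 20 kb, or with no minimum length, which gave 1 AMB. II members numbered 1 by first exon, which was *Pcdhgc5* because the first exon of its coding transcript with the most exonic bases, Pcdhgc5-209, was used. II members also numbered 1 with DRs of at least 20 kb, which was *Pcdhb1*, wholly in a WT LAD but in no KO LAD. Joining LADs across gaps of up to 20 or 50 kb left 0 starts in a WT LAD only and 0 WT-only DRs, with 2 and 1 KO LADs over the cluster. Joining up to 50 kb gave 1 WT LAD, 0 KO-only DRs and 73.52% of the Pcdhg part in WT LADs against 69.33% in KO LADs, which turns the order of the genotypes, and LADs of at least 50 kb alone gave 30.16% in WT. Joining up to 20 kb turned the order for the whole cluster, to 89.97% in WT and 90.99% in KO. Borders moved by 2 kb changed no number of starts among genes and no share by more than 1.5 times. The PP majority stayed within 1.5 times under the alternatives run. No paired analysis was possible because each genotype has 1 library of each kind. The lists carry no depth, so the error of a border is unknown, and each DR named here is under 20 kb. A call of PI or IP for a member rests on a DR of 10.7 to 17.44 kb.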

Other observations

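Classical and other cadherins, the wider superfamily of the protocadherins, were spread over all classes. Of 23 genes, 6 were PI (26.09%, against 5.43% of all protein-coding genes), 5 IP (21.74% against 17.1%), 4 AMB (17.39% against 2.96%), 2 PP (8.696% against 17.9%) and 6 II (26.09% against 56.6%). The other PI genes beside those given next were *Cdh7*, *Cdh8* and *Cdh20*, the other IP genes *Cdh22*, *Cdh23* and *Cdh26*, and the AMB genes *Cdh4*, *Cdh6*, *Cdh11* and *Cdh18*. *Cdh10*, *Cdh12* and *Cdh13* were PI and started in a WT LAD only, with 76.45%, 91.43% and 88.58% of their span in KO LADs against 100%, 100% and 99.07% in WT. *Cdh2*, the N-cadherin gene, was IP, from 0% of its span listed in WT to 18.77% in KO, and *Cdh5*, the cadherin gene of endothelial junctions, was IP with 0% and 26.6%.

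Of 16 genes for proteins that act on the chromatin of the protocadherin cluster, 13 were II (81.25%, against 56.6% of all protein-coding genes) and 3 IP (18.75% against 17.1%), so the IP share was near that of all genes. The cohesin subunit gene *Rad21* was covered by LADs over 0% of its span in WT and 68.33% in KO, the cohesin subunit gene *Stag1* 0% and 9.604%, and the histone methyltransferase gene *Setdb1* 0% and 20.65%. Of 12 genes for intracellular partners of protocadherins, 6 were II (50% against 56.6%), 4 IP (33.33% against 17.1%; *Ret*, *Nckap1*, *Wasf1* and *Marcks*) and 2 AMB (16.67% against 2.96%; *Fyn* and *Cyfip2*). The median span of the partner genes was 84.91 kb, against 15.43 kb over all protein-coding genes, and the part of length in their shares was not tested. *Marcks*, which codes for an actin-binding membrane protein, went from 0% of its span in WT LADs to 100% in KO LADs, and *Ret*, a receptor tyrosine kinase gene, from 0% to 73.51%. These are positions, and no expression was used.

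Genes that mark liver cell types were placed as follows, again by position alone, and the shares over all protein-coding genes to set beside them are 56.6% for II, 17.9% for PP, 17.1% for IP, 5.43% for PI and 2.96% for AMB. Of 10 hepatocyte markers, 9 were II (90%) and *Cyp3a11* was PI, with a WT-only DR over 76.08% of it. Of 5 Kupffer cell markers, *Emr1* was PI, *Marco* AMB, 1 PP and 2 II. Of 4 endothelial markers, *Stab2* was IP, 1 PP and 2 II. Of 3 stellate cell markers, *Reln* was AMB, 1 PP and 1 II, and all 3 cholangiocyte markers were II. With 3 to 5 genes in each of the last 4 lists, nothing is read from their shares.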
